A study of Drosophila melanogaster with 4 samples.

Results

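The X chromosome of Drosophila melanogaster carried 1569 of 9667 regions enriched for the histone variant H2Av in ChIP replicate 1. It carried 783 of 4664 in ChIP replicate 2 and 1284 of 7944 in a combined list of the whole series. A region belonged to X when the deposited list placed it on the assembled sequence named X, which is 22.4 Mb long on FlyBase release 5, so no measured value chose the members. The unplaced scaffold XHet was not part of it. The 2 replicate lists came from nuclei of wild-type larvae of the strain Oregon-R (Oregon-R-modENCODE) in instar 3, precipitated after formaldehyde fixation and sonication with the H2AV antibody numbered 9751. Both lists share this strain, genotype, stage and antibody, and the labels pair either one with the input of its own number. Sex, tissue and the number of collections are not given in the labels, so cell types cannot be told apart and the spread between the replicates may be technical.

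H2Av is the H2A variant of the fly and does the work that H2A.Z and H2A.X share in other animals. It is known from the nucleosomes next to the start sites of transcribed genes, from silent heterochromatin, and from its phosphorylated form at broken DNA. X is the larger of the fly's sex chromosomes, and in males a complex of proteins and noncoding RNA (the MSL complex) binds its active genes and raises their transcription. Its assembled sequence runs from the telomere at its low coordinates, called the tip here, to the side of the centromere at its high coordinates.

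X carried about as much H2Av-enriched sequence as the autosomal arms 2L, 3L and 3R, which serve as its background. Of the bases of X, 25.8% lay in a region of replicate 1, 18.3% in one of replicate 2 (mean 22.0% ± 5.29, SD, n = 2) and 25.5% in one of the combined list. The background arms ranged from 25.2% to 26.9%, from 17.6% to 18.95% and from 24.6% to 26.0% in the same order. X lay inside the range of the 3 arms in each list. X minus their mean was -0.21 percentage points in replicate 1 and 0.033 in replicate 2, a mean of -0.091 ± 0.174 (SD, n = 2), smaller than the spread between the replicates. Its sign turned with the list, since it was 0.276 among combined regions, 0.532 with both lists cut by score to 1 length and 0.923 over the 50% of regions with higher scores. With 2 replicate lists an exact permutation test cannot go below p = 0.5 (2-sided), so no difference between X and the arms is given a p.

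The number of regions on X followed the list more than the chromosome. X held 69.97 regions per Mb in replicate 1 and 34.9 per Mb in replicate 2, against 65.8 to 70.04 and 31.1 to 35.7 per Mb on the arms. In the combined list X held 57.3 per Mb and the arms 49.9 to 57.0. The density of X over the mean of the arms was 1.02 in both replicates. Replicate 1 thus listed 2.004 times as many regions on X as replicate 2 and covered 1.41 times as many bases, and the corresponding ratios of the arms ran from 1.96 to 2.12 and from 1.33 to 1.48.

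Most regions on X were a few kb wide, and their widths were much like those of the arms. The median X region spanned 2536 bp in replicate 1 and 3646 bp in replicate 2, and 2884 bp among the combined regions, against 2560, 3715 and 2958 bp over 2L, 3L and 3R together. The narrowest X regions were 1301, 1304 and 1001 bp wide in the same order. Regions under 2 kb made up 36.8% of X in replicate 1 and 16.9% in replicate 2. The arms had 36.8% and 16.5%, so the surplus of narrow regions in replicate 1 was as large there as on X.

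Broad regions of at least 10 kb were a small part of the X list and held a larger part of its bases. Replicate 1 had 80 of them on X (5.10% of its X regions), replicate 2 had 85 (10.9%) and the combined list 114 (8.88%). Over all sequences of the same lists, 5.87%, 12.3% and 9.74% of regions were that broad. The arms ranged from 4.56% to 6.87% in replicate 1 and from 10.03% to 13.1% in replicate 2, so the share on X was inside the range in both. Among combined regions X was below all 3 arms, which had 9.37% to 11.4%. On X these regions held 20.5% of the region bases in replicate 1 and 33.3% in replicate 2.

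The widest region was called nearly whole in both replicates. It spanned 49.0 kb of X at 15832642 to 15881666 in the combined list, and replicate 1 called it as 1 region of 49.2 kb and replicate 2 as 1 region of 48.5 kb. The next widest, 47.2 kb at 20053032 to 20100258, was split into 7 regions in replicate 1 and 4 in replicate 2, which covered 84.5% and 90.1% of it. A 40.5 kb region at 2052286 to 2092742 was 1 region in replicate 2 and 4 in replicate 1. Those at 13052404 to 13089856 (37.5 kb) and 9069182 to 9104310 (35.1 kb) were covered to 99.6% and 98.7% by replicate 1 and to 96.1% and 87.97% by replicate 2. Both replicates covered each of these 5 stretches to at least 84.5%. Those from 20053032, 2052286 and 13052404 were divided into unlike numbers of regions in the 2 libraries.

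Neighbouring regions on X lay close together, and a few long gaps made up much of the chromosome. The median gap from the end of a region to the start of the next was 2799.5 bp in replicate 1, 4785 bp in replicate 2 and 2725 bp among combined regions. The arms pooled gave 2786.5, 4078.5 and 2565 bp, so the median gap on X was 1.005 times that of the arms in replicate 1 and 1.17 times in replicate 2 (mean 1.09 ± 0.119, SD, n = 2). Of the gaps on X, 26.4% were under 1 kb in replicate 1 and 18.8% in replicate 2. On the arms these shares were 26.5% to 27.8% and 20.4% to 23.9%. Gaps of at least 50 kb were 5.04% of the gaps on X in replicate 1 and 12.4% in replicate 2, yet they held 34.6% and 57.5% of the chromosome.

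**Figure D1:**
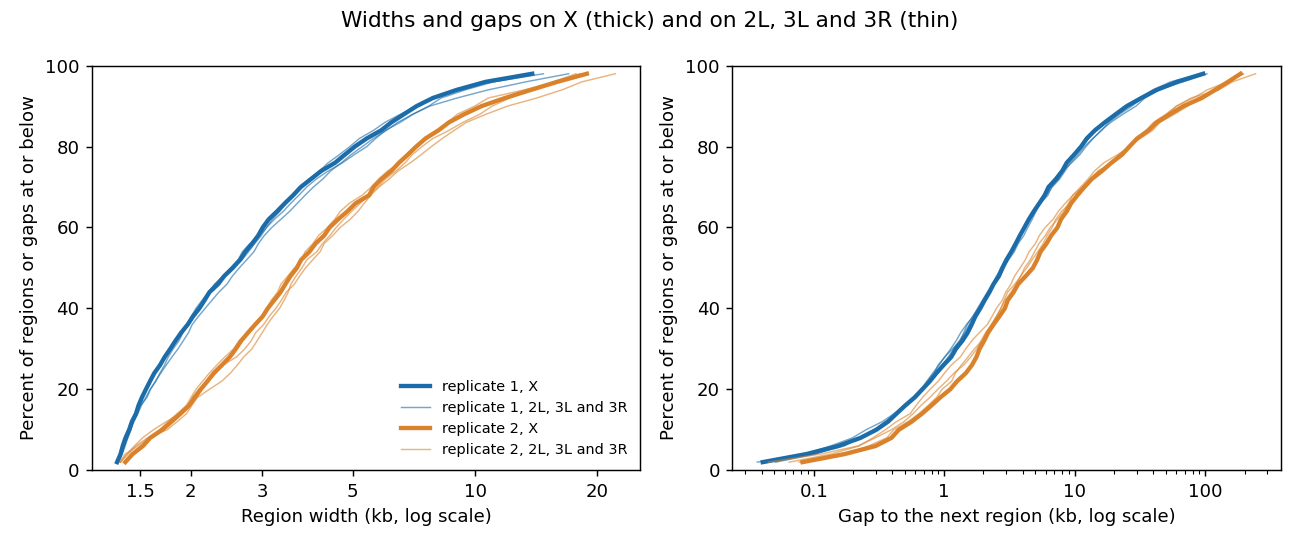
Percent of regions at or below a width (left, kb) and percent of gaps at or below a length (right, kb), both on log axes, for X (thick lines) and for 2L, 3L and 3R (thin lines) in replicate 1 (blue) and replicate 2 (orange). The widths of X run among those of the arms, with medians on X of 2536 bp and 3646 bp, while its gaps in replicate 2 lie to the right of those of the arms at the median (4785 bp against 3813.5 to 4290.5 bp), and the 2 lists stand apart on each arm.

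Cut at gaps of 50 kb or more, X fell into 80 runs of regions in replicate 1 and 98 in replicate 2. The median run held 13 regions over 105.3 kb in replicate 1 and 5 regions over 50.8 kb in replicate 2, against 13 to 14 and 5 regions on the arms. Runs of at least 20 regions held 75.1% of the X regions of replicate 1 and 30.01% of those of replicate 2, values inside the ranges of the arms, 71.8% to 82.5% and 20.6% to 32.04%. The run with the most regions on X lay at 16137373 to 17202879 in replicate 1, where 128 regions covered 45.9% of 1066 kb. In replicate 2 it lay at 16157305 to 16591501, inside the former, with 42 regions over 434.2 kb. Another began at 5506072 in replicate 1, 5506818 in replicate 2 and 5506590 among combined regions, and held 93, 39 and 81 regions.

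Gaps of 100 kb or more numbered 30 on X in replicate 1, 60 in replicate 2 and 43 among combined regions. Per Mb this was 1.34, 2.68 and 1.92 on X, against 1.14 to 1.39, 2.28 to 2.44 and 1.59 to 2.22 on the arms. X stood above all 3 arms in replicate 2 and within their range in the other lists. Of the 30 gaps of replicate 1, 23 held no region of replicate 2, and the regions in the other 7 covered 0.24% of the bases of all 30. On 2L, 3L and 3R 25 of 32, 24 of 28 and 29 of 38 such gaps held none. The bases covered there were 0.12%, 0.020% and 0.086%, below X on each arm. In the opposite direction 59 of the 60 gaps of replicate 2 held a region of replicate 1, 381 regions in all, which covered 6.87% of those bases. On 2L, 3L and 3R 54 of 54, 55 of 56 and 67 of 68 gaps of replicate 2 held one, and the share of bases was 5.85% to 6.53%.

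Stretches of X empty in all 3 lists reached 100 kb in 27 places, which together made up 17.04% of the chromosome. The longest spanned 290.4 kb at 12010307 to 12300721. Its tip-side edge was sharp, since the last region before it ended just ahead of 12010307 in replicate 1, 12010106 in replicate 2 and 12010301 among combined regions. The combined list reached that edge with a run of 55 regions over 440.9 kb from 11569370. The next longest of the 27 lay at 4980673 to 5183745 (203.1 kb) and 14245674 to 14431488 (185.8 kb).

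Along X, coverage in windows of 1 Mb ranged from 13.4% to 43.5% in replicate 1 and from 7.77% to 31.7% in replicate 2, and the same windows led both lists. The most covered window lay 15 to 16 Mb from the tip and was covered to 43.5% in replicate 1 and 31.7% in replicate 2 (37.6% ± 8.32, SD, n = 2). It was followed by 16 to 17 Mb with 41.4% and 27.01% (34.2% ± 10.2) and by 11 to 12 Mb with 40.7% and 26.5% (33.6% ± 10.01). These 3 windows were the highest in each replicate list taken alone and in the combined list, which gave 44.2%, 40.8% and 41.0%. The 100 kb with the highest mean coverage on X lay within the first of them, at 15800001 to 15900000, and were covered to 85.8% in replicate 1 and 75.3% in replicate 2 (80.5% ± 7.43, SD, n = 2).

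By the mean of the replicates, the least covered windows were 12 to 13 Mb from the tip with 16.9% and 7.77% (12.3% ± 6.43, SD, n = 2), 4 to 5 Mb with 13.4% and 11.7% (12.5% ± 1.18) and 3 to 4 Mb with 15.4% and 12.3% (13.8% ± 2.16). A highly covered window and the least covered one thus lay side by side at 11 to 13 Mb, where the sharp edge of the longest empty stretch falls. In 21 of the 22 windows of X replicate 1 covered more than replicate 2. The exception was 1 to 2 Mb from the tip, with 21.8% in replicate 1 and 23.5% in replicate 2. Across the 22 windows the Pearson correlation between the replicates was 0.83 and the Spearman correlation 0.74. On 2L, 3L and 3R the Pearson values were 0.93, 0.83 and 0.84 and the Spearman values 0.89, 0.90 and 0.85. By rank the replicates thus matched less closely on X than on each arm. These correlations are given as descriptions, since windows of 1 chromosome share libraries and neighbours.

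**Figure D2:**
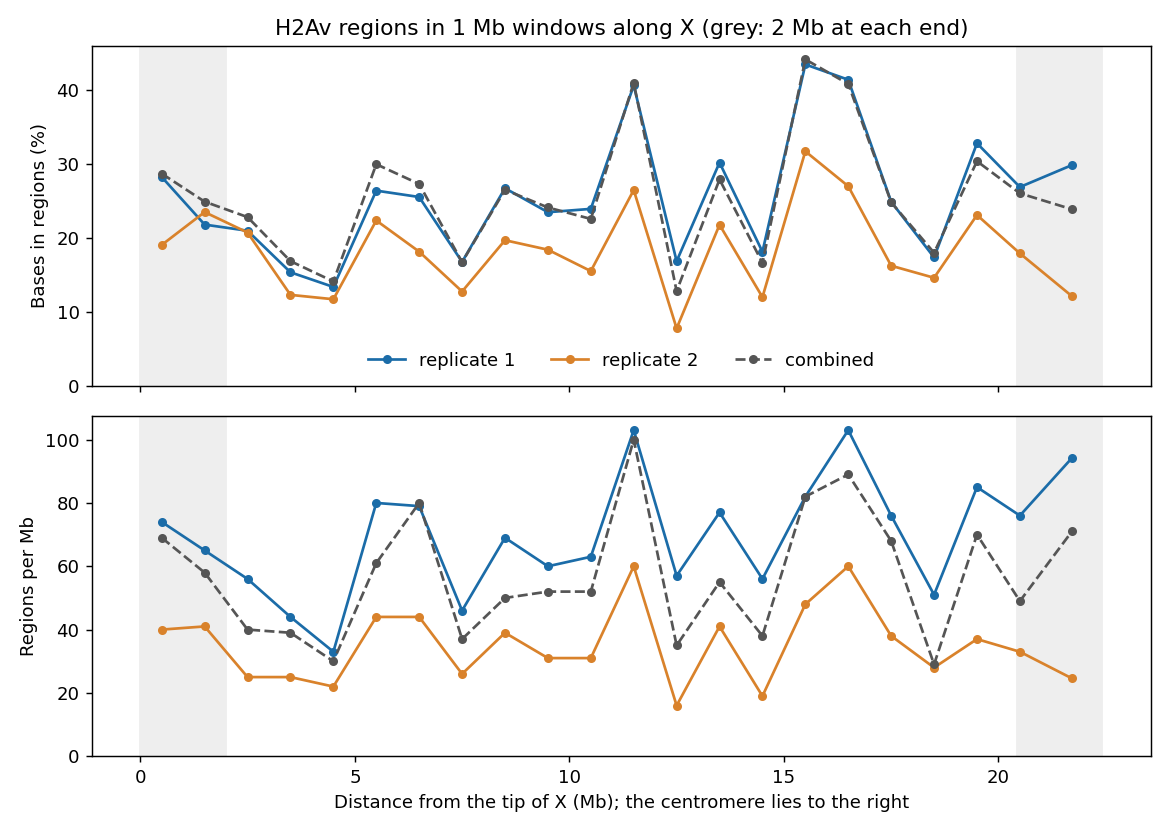
Percent of bases in regions (top) and regions per Mb (bottom) in 22 windows along X against distance from the tip (Mb), for both replicates and the combined list, with the 2 Mb at each end shaded. The 3 lists peak at 11 to 12 and 15 to 17 Mb and dip at 12 to 13 Mb, and replicate 2 ends lower in the last window, at 12.1% against 29.9% in replicate 1.

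Coverage varied less from window to window on X than on 2L and 3L. The SD over windows of 1 Mb was 8.38 percentage points on X in replicate 1 and 5.92 in replicate 2. On 2L it was 12.03 and 8.88, on 3L 13.2 and 8.60, and on 3R 8.17 and 6.97. X was thus lower than 2L and 3L in both replicates and close to 3R in replicate 1, a difference that was not tested. The highest window of X, at 43.5% in replicate 1, compares with 63.7% on 2L, 67.3% on 3L and 43.9% on 3R. In that list the 1 Mb next to the centromere was covered to 64.5% on 2L, 65.1% on 3L and 43.9% on 3R. On X it was covered to 29.95%. The SD of each arm thus includes its centromere side, and an SD without it was not computed. Of the 224 windows of 100 kb on X, 37 were empty in replicate 2 (16.5%), against 22.04% to 24.8% on the arms, and 11 were empty in replicate 1 (4.91%), against 5.73% to 6.94%.

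H2Av regions did not take up a larger part of X next to its centromere in both libraries, as they did on 2L, 3L and 3R. In the 2 Mb at the high-coordinate end, 20422828 to 22422827, regions covered 27.2% in replicate 1 and 11.5% in replicate 2 (19.4% ± 11.1, SD, n = 2), and combined regions 22.02%. The middle of X, between the 2 Mb at either end, was covered to 25.7%, 18.7% (22.2% ± 4.94, SD, n = 2) and 25.7%. Centromere side minus middle was thus 1.53 points in replicate 1 and -7.21 in replicate 2 (mean -2.84 ± 6.18, SD, n = 2), with opposite signs and a spread wider than the mean.

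The background arms each rose in both libraries over the same length. The 2 Mb next to the centromere exceeded the middle by 27.2 and 13.2 points on 2L, by 33.03 and 12.9 points on 3L and by 16.8 and 7.72 points on 3R, in replicates 1 and 2. Their combined lists gave 27.8, 34.7 and 14.9 points against -3.69 on X. The smallest of these differences on an arm, 16.8 in replicate 1 and 7.72 in replicate 2, lay above that of X in the same list. With 2 lists the difference between X and the arms could not reach significance in any exact test. With ends of 1 Mb X gave 4.50 and -8.01 points and with ends of 3 Mb 4.68 and -1.14, while each arm stayed above 0 in each replicate at either length.

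**Figure D3:**
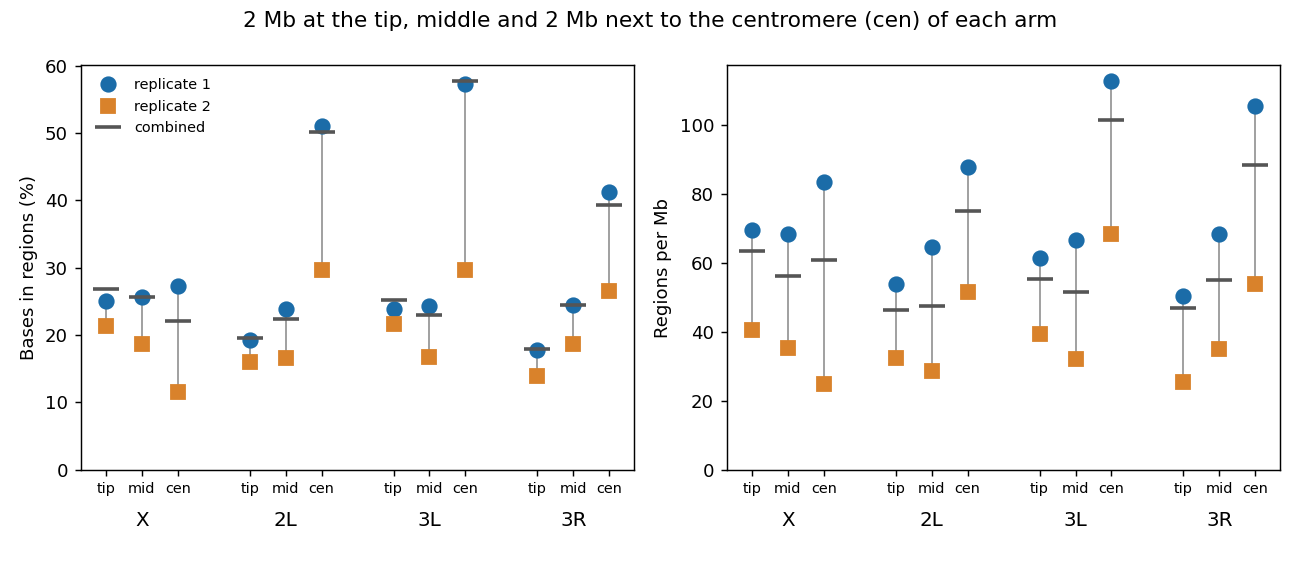
Percent of bases in regions (left) and regions per Mb (right) in the 2 Mb at the tip, the middle and the 2 Mb next to the centromere of X, 2L, 3L and 3R, with replicate 1 as circles, replicate 2 as squares, a line joining them and the combined list as bars. On 2L, 3L and 3R the centromere side is the highest of the 3 sections in each list, whereas on X it is 27.2% in replicate 1 and 11.5% in replicate 2.

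Counts of regions split the replicates in the same way. Next to the centromere X held 167 regions in replicate 1 (83.5 per Mb) and 50 in replicate 2 (25 per Mb), against 68.6 and 35.4 per Mb in the middle. The density ratio of the centromere side to the middle was 1.22 in replicate 1 and 0.706 in replicate 2, where the arms gave 1.36 to 1.69 and 1.54 to 2.13. Replicate 1 thus listed 3.34 times as many regions as replicate 2 at this end of X, against 1.72 times at the tip, 1.94 times in the middle and 1.65 to 1.95 times next to the centromere of the arms.

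In replicate 2 the regions at this end formed compact groups with long empty stretches between them. Split at gaps of 100 kb, the 50 regions made 7 groups. They lay at 20525390 to 20527523, 20631397 to 20675239, 20887138 to 20989571, 21161132 to 21271271, 21463850 to 21507360, 21841921 to 21953169 and 22333368 to the end of X. Among groups of more than 1 region the most covered in each list, of 6 replicate 2 regions over 43.5 kb from 21463850, was covered to 74.4% in replicate 2, 81.7% in replicate 1 and 84.8% by combined regions. The group of 15 regions over 110.1 kb from 21161132 was covered to 60.3%, 74.2% and 74.4% in the same order. The first group was a single region of 2134 bp that replicate 1 lacked.

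The 6 empty stretches between these groups were 103.9 to 380.2 kb long and summed to 1395 kb. Those of 380.2 kb at 21953170 to 22333367 and of 334.6 kb at 21507361 to 21841920 were the longest and the fourth longest gaps of replicate 2 on X. Replicate 1 had 100 regions that lay in or reached into the 6 stretches, some of which also met a group. It covered 14.6% of the bases of the stretches, against 66.8% of the groups. The median of these 100 regions was 1743.5 bp wide, and of those meeting a group 3467 bp. Gaps of at least 100 kb took up 74.9% of the last 2 Mb of X in replicate 2 and 11.2% in replicate 1. On the arms they took up 14.4% to 30.3% of the centromere side in replicate 2.

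**Figure D4:**
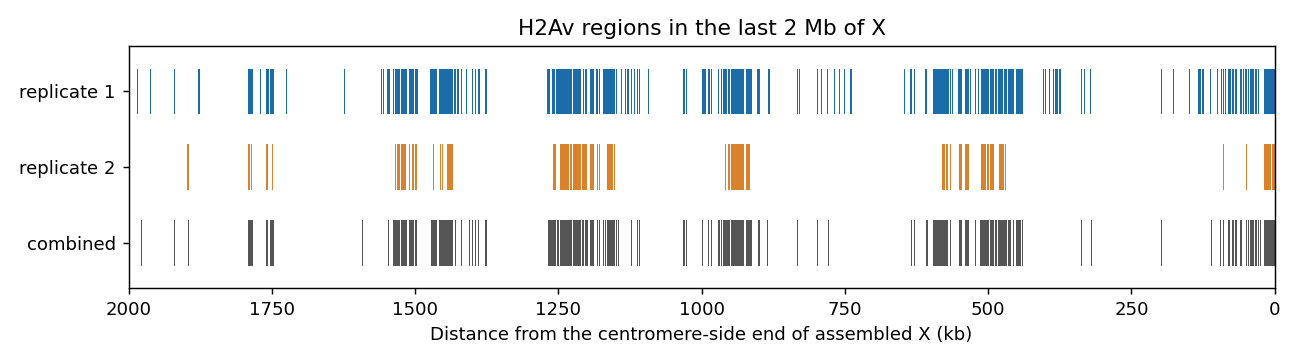
Map of the regions of replicate 1, replicate 2 and the combined list in the last 2 Mb of X, drawn to scale against distance from the centromere-side end (kb). Replicate 2 shows 7 groups with empty stretches of up to 380.2 kb. In or reaching into these stretches replicate 1 has 100 regions with a median width of 1743.5 bp, a few of them several kb wide.

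Regions of replicate 1 that replicate 2 lacked at this end had a median width close to that of such regions in the middle of X and a higher median score. They numbered 121 of 167, their median width was 1757 bp, and their median score stood at percentile 54.0 of the whole list. Of the middle of X 558 such regions had a median of 1694.5 bp and stood at percentile 38.02. Next to the centromere of 2L, 3L and 3R the percentiles were 52.3, 50.2 and 24.9. Scores varied along this end. Over all replicate 1 regions in or reaching into each of the 6 empty stretches of replicate 2, the median ran from percentile 24.3 to 89.9. It was highest in the stretch of 334.6 kb. Some of these regions also met replicate 2 at the edge of a group. Of the 121, 65.3% carried a score that another region of the list repeats exactly, against 56.1% of the 558 and 39.8% to 50.5% next to the centromere of the arms. The part of repeated scores in the result was not tested.

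The last region of X ran over the edge of the assembled sequence in all lists. In the combined list it began at 22404480 and ended 437 bp past the sequence end, with a score of 1.58, and regions of replicate 1 and replicate 2 covered 97.4% and 93.1% of it. The combined regions before it, at 22397866 to 22399136 and 22393266 to 22394850, were 1271 and 1585 bp wide, and neither met a region of replicate 2. 

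The tip of X was covered like the middle and more than the tips of 2L and 3R. Its 2 Mb gave 25.04% in replicate 1 and 21.3% in replicate 2 (23.2% ± 2.65, SD, n = 2), and combined regions 26.8%. The tip minus the middle was -0.66 and 2.58 points, a mean of 0.959 ± 2.29 (SD, n = 2) within the spread of the replicates. The tips of the arms were covered to 19.3% and 16.05% on 2L, 23.9% and 21.6% on 3L and 17.7% and 13.9% on 3R. X was thus above 2L and 3R in both replicates and not above 3L in replicate 2.

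Within the tip the replicates differed most at the very end. The outermost 500 kb were covered to 33.8% in replicate 1 and 15.6% in replicate 2, and the stretch from 1000 to 1500 kb to 17.7% and 24.1%. In the latter replicate 2 covered more, unlike in most of X. The combined list opened at 102 to 1938, a region that neither replicate listed, followed by 2024 to 10844 and 11306 to 14026, which both did.

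Most X regions of replicate 2 met the longer list of replicate 1, and fewer did so in reverse, at rates close to all sequences. Of the 783 regions of replicate 2 on X, 746 overlapped a region of replicate 1 by at least 1 bp, which is 95.3% (95% Clopper-Pearson interval 93.5 to 96.7, counting error only). The 37 without one made up 4.73% of replicate 2 on X, against 4.97% over all sequences. The share on X was 65.6% with both lists cut by score to 1 length. It was 70.2% when at least 50% of both regions had to overlap. Neither of these settings was run on the arms or over all sequences, so whether X differs there is not known. In the other direction 842 of 1569 X regions of replicate 1, or 53.7% (51.2 to 56.2), met replicate 2, against 50.4% over all sequences. All 85 broad X regions of replicate 2 and 79 of the 80 of replicate 1 were shared, against 100% and 97.5% of broad regions over all sequences. Regions under 2 kb were shared in 104 of 132 cases (78.8%) from replicate 2 and in 111 of 578 (19.2%) from replicate 1, near the 79.3% and 17.1% of such regions over all sequences.

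Sharing depended on the place along X. From replicate 1, 65.5% of 139 regions at the tip met replicate 2 (56.9 to 73.3), 55.8% of 1263 in the middle (53.03 to 58.6) and 27.5% of 167 next to the centromere (20.9 to 35.0). On 2L, 3L and 3R the shares were 59.3%, 72.4% and 55.4% at the tip and 49.6%, 52.6% and 56.4% in the middle. X lay within both ranges, and on 2L and 3L too the share was highest at the tip. Next to the centromere of these arms the shares were 47.2%, 48.7% and 51.2%, with intervals from 39.6 upward. The interval of X lay below those of the arms at this end alone. Regions of a list are not independent, and the difference has no test. From replicate 2, 49 of the 50 regions at this end of X met replicate 1.

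Regions that matched 1 to 1 had close edges. On X 471 pairs matched in this way, and the median distance between the starts was 367 bp and between the ends 409 bp. Replicate 1 had the wider member in 249 pairs and replicate 2 in 222, and the median pair member was 3798 bp wide in replicate 1 and 3514 bp in replicate 2, the reverse of the order over whole lists. The Spearman correlation across the pairs was 0.62 for scores and 0.74 for widths, against 0.60 to 0.74 and 0.73 to 0.78 on the arms. In addition, 153 regions of replicate 2 on X (19.5%) spanned at least 2 regions of replicate 1, and 83 of replicate 1 (5.29%) spanned at least 2 of replicate 2, against 19.2% and 5.62% over all sequences.

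Combined regions on X met the replicates at rates close to those of all sequences. Of its 1284 X regions, 679 (52.9%, 50.1 to 55.6) met regions of both libraries, against 50.0% over all sequences. Another 433 (33.7%) had a counterpart in replicate 1 alone, 30 (2.34%) in replicate 2 alone and 142 (11.1%) in no replicate. Over all sequences these shares were 35.9%, 2.92% and 11.1%. Counted per library, 86.6% of combined X regions met replicate 1 and 55.2% replicate 2, against 86.0% and 53.0% over all sequences. Conversely, 80.2% of X regions of replicate 1 and 98.3% of those of replicate 2 met the combined list, close to the 78.9% and 99.1% of all sequences. Those in both had a median width of 4905 bp, those in replicate 1 alone 1687 bp and those in neither 1195 bp. Next to the centromere the share in both fell to 32.8% of 122 regions (24.6 to 41.9), and 53.3% met replicate 1 alone. The arms had 42.4% to 49.7% in both at that end. All X regions of the combined list started at an even position, against 49.1% and 51.5% in the replicates.

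Scores of X regions stood slightly above those of the arms at a given width in each list. The score is the authors' value for a region, its scale is not given in the sources used here, and it is compared here within a list. Among regions under 2 kb the median score was 0.625 on X in replicate 1, against 0.546 on 2L, 0.528 on 3L and 0.497 on 3R. In replicate 2 it was 0.564 on X against 0.4996, 0.509 and 0.493 on the same arms. The X median minus that of the arms pooled was 0.105 in replicate 1, 0.0657 in replicate 2 and 0.0633 among combined regions. Ranked within its list, the median X region under 2 kb stood at percentile 28.02 in replicate 1 and 16.3 in replicate 2. The pooled arms stood at 16.3 and 7.98. The mean difference over the replicates was 0.0853 ± 0.0277 (SD, n = 2), and 0.0464 with both lists cut by score to 1 length. Both means presume that the lists share a score scale, which is not known.

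Among wider regions the X median was again above that of each arm. For regions of 2 to 5 kb the X median was 0.868 in replicate 1 and 0.878 in replicate 2, with the arms at 0.803 to 0.823 and 0.791 to 0.832. At 5 kb or more it was 1.21 and 1.28, with the arms at 1.13 to 1.19 and 1.20 to 1.25. The middle of X alone, without either end, also exceeded the middle of each arm in the 3 width classes of both replicates, with 0.606 against 0.494 to 0.539 for regions under 2 kb in replicate 1. In the combined list the middle of X had 0.628 at 2 to 5 kb, below the 0.641 of 3R. The quartiles of X and the arms overlapped in all classes, and regions of a list are not independent, so these values carry no test.

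**Figure D5:**
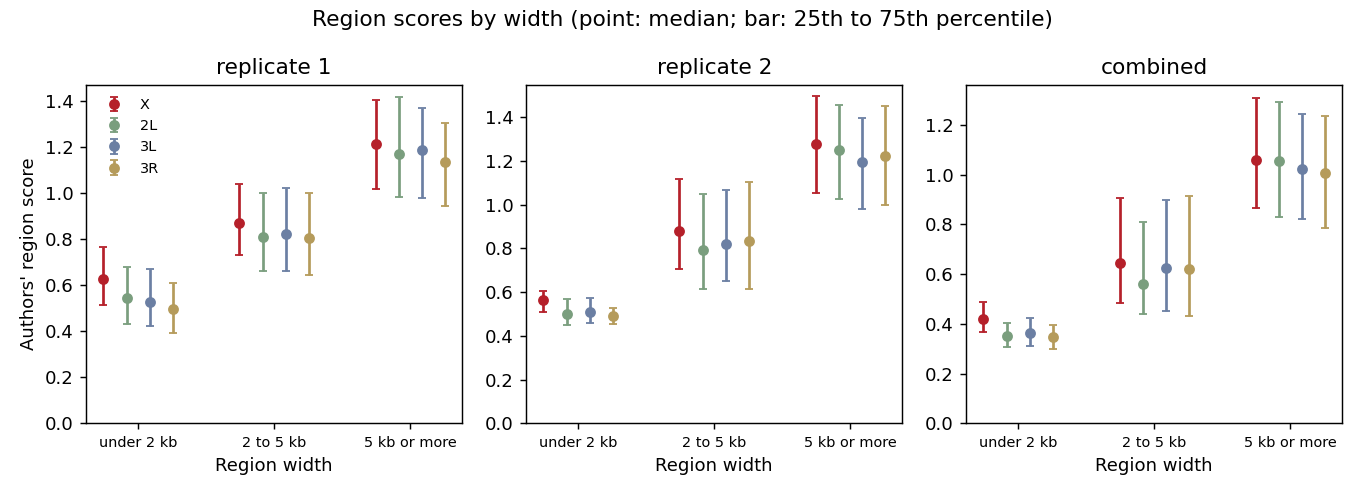
The authors' region score by width class for X, 2L, 3L and 3R in each list, with points for medians and bars from the 25th to the 75th percentile. The X median is the highest of the 4 in each class of each list, by 0.0784 over the next arm for regions under 2 kb in replicate 1 and by 0.0276 at 5 kb or more, and the bars overlap.

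Repeated scores moved with this difference. Among X regions under 2 kb, 64.0% in replicate 1, 37.9% in replicate 2 and 40.8% of combined regions had a score found elsewhere in the same list. On the arms the shares were 47.3% to 51.3%, 23.7% to 26.9% and 26.2% to 31.7%. Their part in the higher scores of X was not tested. Wider X regions had higher scores, with Spearman correlations of 0.67 and 0.77 in replicates 1 and 2 and 0.66 among combined regions. On the arms these were 0.72 to 0.75, 0.70 to 0.76 and 0.71 to 0.74. X was thus below each arm in replicate 1 and the combined list and above each in replicate 2. All are given as descriptions across regions of 1 list.

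Regions of X that met replicate 2 had higher scores than those that did not, with medians of 0.946 and 0.741 in replicate 1 and of 0.903 and 0.445 in the combined list. They were also wider, with medians of 3756.5 against 1711 bp and of 4615 against 1489 bp. On the arms pooled the median scores were 0.923 and 0.629 in replicate 1 and 0.861 and 0.379 in the combined list. This split was not compared at a given width. The very highest scores of the combined list on X did not lie in regions that met replicate 2. Of the 6 highest there, with scores from 3.22 to 3.54 and widths from 1001 to 1643 bp, none met replicate 2. Only 1, at 13893870 to 13894874, met replicate 1. Several of the 6 shared exactly the same score, 3.39 or 3.22. Another X region, in the stretch 21953170 to 22333367, also scored 3.22, so the order and the choice of the 6 are partly a tie. Among combined X regions found in both, the highest score was 2.05 at 6066586 to 6068538, in a region of 1953 bp. Its counterparts scored 4.23 in replicate 1 and 3.58 in replicate 2. These were the second highest score of replicate 1 and the highest of replicate 2 on X. The highest score of replicate 2 on 2L was exactly the same, 3.58. In the combined list it was followed by 15728408 to 15736650 with 1.95, 21841634 to 21848380 with 1.87, 2612862 to 2623220 with 1.86 and 17240 to 25448, near the tip, with 1.85. Replicate 1 covered 88.7% to 100% of these last 4 and replicate 2 covered 84.4% to 100%. The highest score of replicate 1 on X, 4.51 at 15940033 to 15942146, had no counterpart in replicate 2.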

How the data were processed

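H2Av was measured by ChIP-seq in 2 ChIP libraries, each with an input library that has no list of its own. The submitters' processing notes name Bowtie 0.12.7, with no role stated. Coordinates follow FlyBase release 5 per the file headers. For the caller, its threshold and the merging of replicates the entry is: not given in the sources used here. In the deposited lists the authors gave each region a score of unknown scale. Read depth is unknown, so counting intervals are over regions.

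Coverage counted bases up to the end of X, and regions were placed by their midpoints. Ends were 2 Mb, windows 1 Mb (a last window under 500 kb was joined to the one before), and gaps ran between consecutive regions. Python 3.11.15, numpy 2.4.6, matplotlib 3.10.9, pandas 2.3.3 and scipy 1.17.1 were used. Interval functions were tested on simulated data.

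The members, lists and measures were chosen with earlier results of these data known. Regions were named by rank of width, score, position and emptiness, and the windows by mean coverage. The widest-run, score-by-width, centromere-side group, 100 kb window and top-score-per-list accounts were added after their values were seen. Alternatives left out a replicate or changed the list, score threshold, end length, window or overlap. Genes were not assigned, since the available gene table follows release 6.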

Additional observations from a re-analysis of the deposited data

How the results depend on the processing

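Of 38 alternatives that kept both replicates, over 12 results, 20 stayed within a set limit and 18 moved beyond it. For most results the limit was the SD over the replicates. It was a fixed factor for the number of long gaps and the counting interval for the overlap shares. The 20 that left out a replicate give only the values of either library and say nothing on stability. The cause of those that moved was not tested. X minus the arms in coverage was 0.276 points in the combined list, 0.923 in the higher-scoring 50% and 0.532 when both lists had equal length by score, so its sign followed the setting. In the same order the density ratio was 1.05, 1.15 and 1.11 and the width ratio 0.975, 0.904 and 0.906. The width ratio was 0.999 with regions closer than 1 kb joined, and the gap ratio 0.900 in the higher-scoring 50%. The score difference under 2 kb was 0.0464 with lists of the same length, a mean over lists whose scores may differ in scale. The SD over windows was 9.62 with windows of 500 kb. Replicate 2 regions found in replicate 1 fell to 70.2% with 50% of both regions overlapping, 65.6% with lists of the same length and 87.5% in the higher-scoring 50%. Combined regions in both replicates were 47.7% with 50% overlap and 57.5% in the higher-scoring 50%. These overlap shares were computed on X alone, so none over all sequences stands beside them. With either replicate left out, the centromere side minus the middle ran from -7.21 to 1.53 points (1.77 with both lists and ends of 3 Mb), the tip from -0.66 to 2.58, long gaps from 30 to 60, the density ratio next to the centromere from 0.706 to 1.22, the SD over windows from 5.92 to 8.38, the score difference from 0.0657 to 0.105, the gap ratio from 1.005 to 1.17, the width ratio from 0.981 to 0.991, the density ratio at 1.02 and X minus the arms from -0.21 to 0.033. No paired analysis was possible because inputs come without a list here and the labels give each ChIP list an input of its own. Alternatives for long gaps without a replicate, for scores, and for windows without a replicate were chosen after seeing the data. Depth is unknown, and the number of regions can move with it.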

Other observations

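XHet, a scaffold of 204.1 kb of X heterochromatin without a place on the assembled chromosome, held 18 regions in replicate 1, 13 in replicate 2 and 12 among combined regions. They covered 50.5%, 30.4% and 56.04% of it. These values lie above those of the 2 Mb at the centromere side of X in each list (27.2%, 11.5% and 22.02%), a difference that was not tested on a single short scaffold.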
